A study of Mus musculus with 12 samples.

Results

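The genes described here are the developmental transcription factors of the paired box (Pax), T-box (Tbx), LIM homeobox (Lhx), sine oculis homeobox (such as Six4 and Six5), Distal-less (Dlx), Iroquois (Irx), Sry-related (Sox) and Nkx families. Members were chosen by gene symbol alone, with Sox4 left out and no filter on low counts. This gave 79 members among the 55573 genes of the count table, of which 38 had at least 1 count in any of 12 RNA-seq libraries and 41 had none. These families bind DNA through homeodomains, paired domains, T-boxes or HMG boxes, and they lay out tissues such as the forebrain, eye, kidney, muscle, limb, heart and cartilage in the embryo. In most adult cells the Polycomb complexes keep such genes silent. Polycomb repressive complex 2 methylates histone H3, and Polycomb repressive complex 1, to which BMI1 belongs, binds that mark, ubiquitinates histone H2A and compacts chromatin, often over promoters rich in CpG.

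The libraries came from bone marrow derived macrophages of C57BL/6 mice, sorted as CD11b+ F4/80+ cells, in 4 groups of 3. BMI1-KO MM-MΦs and BMI1-KO MΦs came from BMI1fl/fl Mx1-Cre mice, and wt MM-MΦs and wt MΦs from BMI1fl/fl mice without Cre. Mice of both genotypes were injected at 6 to 8 weeks of age with 5 doses of poly I:C at 15 mg/kg, which induces the interferon-responsive Mx1 promoter that drives Cre, and marrow was taken 4 weeks later. MΦs were grown for 7 days in M-CSF at 5 ng/mL, and MM-MΦs had a further 48 h of co-culture with 5TGM1 cells, a mouse myeloma line. Both genotypes thus carry the floxed allele and had poly I:C, and only the BMI1-KO groups carry Cre. Mx1-Cre is not confined to macrophages, and the deletion took place in the marrow before culture. The sources used here do not say whether replicates 1 to 3 were separate mice, so p-values measure the spread between these libraries. In such bulk libraries, fewer expressing cells and less RNA per cell cannot be told apart.

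The libraries held 9662279 to 11142768 counts over 17611 to 18370 genes with a count, so that 1 count was worth 0.0857 to 0.107 CPM, a count scaled by its library's normalized total. All 10 macrophage markers had counts in each group, with summed levels of 13422 to 20404 CPM over the 12 libraries. Cdkn2a, the reference Polycomb target, had 108 to 230 counts in the BMI1-KO libraries, against 0 to 7 in wt libraries. In edgeR its log2 fold change averaged over both cultures was 7.15 (SE 0.48, adjusted p = 2.32e-07). Bmi1 stood at 0 in each BMI1-KO library and at 251 to 364 counts in the wt libraries. The library totals behind the deposited FPKM values, however, exceed the summed counts by 512 to 734 in BMI1-KO libraries and differ by −2 to 1 in wt libraries, so that the zeros of Bmi1 were not used as a check of the labels. For no member did the FPKM values and the counts disagree. The neutrophil marker list was highest in the BMI1-KO libraries numbered 2, at 203 CPM in MM-MΦs and 131 CPM in MΦs, whereas it stood at 36.8 to 64.3 CPM over the 6 wt libraries. The other BMI1-KO libraries had 37.0 and 50.1 CPM in MM-MΦs and 32.0 and 66.8 CPM in MΦs.

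Most members were silent or close to it in all groups. A share of 48.1% of the members had a count in any library, against 43.8% of all genes in the table. Only 17 of the 79 members (21.5%) reached 10 summed counts in either genotype, against 32.3% of all genes, and 6 (7.59%) passed the usual low-count filter of edgeR, against 25.5%. The silent members included all of Pax1, Pax2, Pax4, Pax7 and Pax8, 12 of 14 Nkx genes, 4 of 6 Irx genes and the stem cell and neural factors Sox1, Sox2, Sox3 and Sox10. A count of 0 in a group allows up to 3 counts there, and this limit covers counting error only. Counts were found in 33 members in BMI1-KO libraries and in 25 members in wt libraries. The members held 964 counts in the 6 BMI1-KO libraries, against 530 in the 6 wt libraries.

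**Figure D1:**
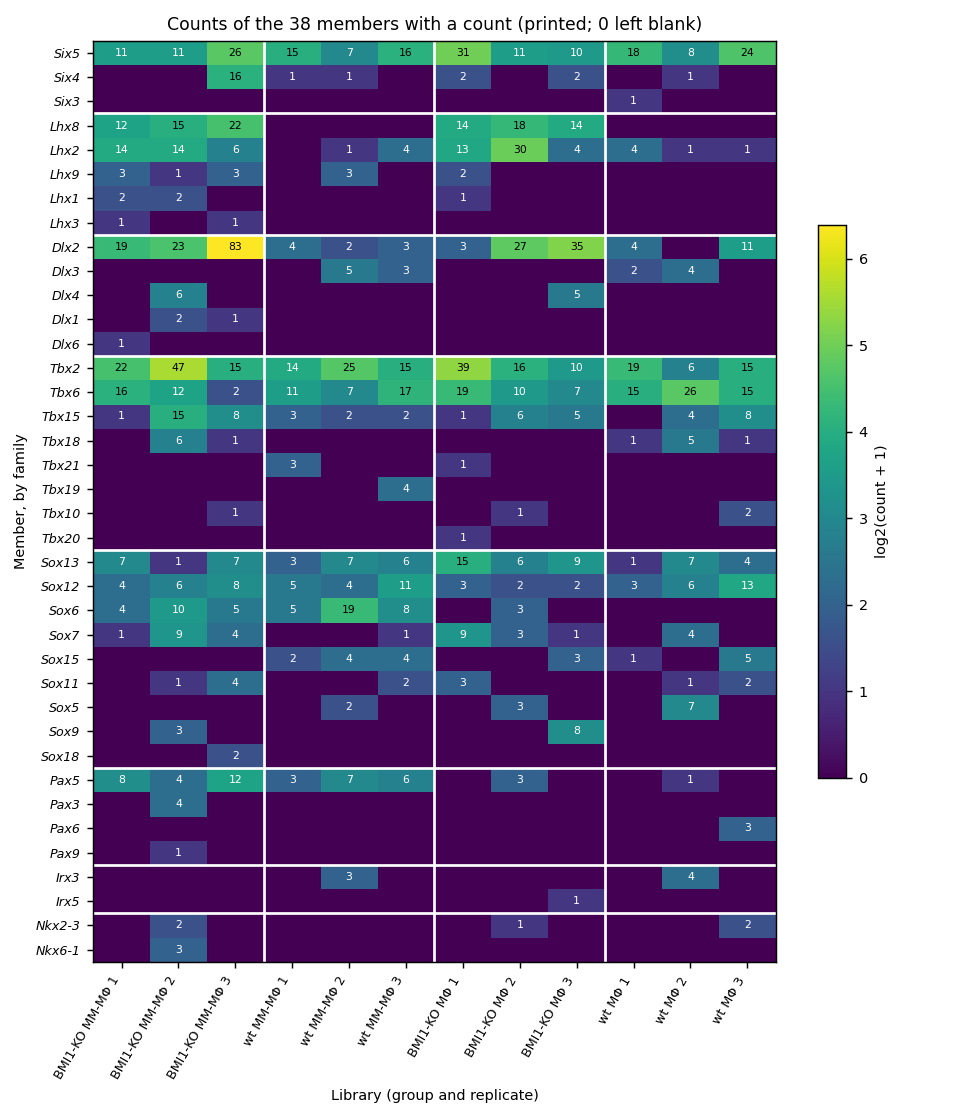
Counts of the 38 members with a count (rows, by family) in the 12 libraries (columns, BMI1-KO left of wt within each culture). The colour gives log2(count + 1), the number printed in a cell is the count, and blank cells are 0; Lhx8, Lhx2 and Dlx2 fill the BMI1-KO columns, and Lhx8 is blank in all 6 wt columns.

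The gain of counts was uneven across families. The Lhx family had 192 counts in BMI1-KO libraries, against 14 in wt libraries, and the Dlx family 205 in BMI1-KO libraries, against 38 in wt libraries. Most of the excess thus lay in these 2 families, and within them in Lhx8, Lhx2 and Dlx2. The sine oculis genes analysed here had 120 counts in BMI1-KO libraries, against 92 in wt libraries. The Tbx family had 262 counts in BMI1-KO libraries, against 220 in wt libraries, the Sox family 146 in BMI1-KO libraries, against 137 in wt libraries, and the Pax family 32 in BMI1-KO libraries, against 20 in wt libraries. The Irx and Nkx families were nearly silent, with 1 and 6 counts in BMI1-KO libraries, against 7 and 2 in wt libraries.

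Lhx8, a LIM homeobox factor of forebrain cholinergic neurons, teeth and oocytes, was the 1 member in which every BMI1-KO library lay above every wt library. It had 12, 15 and 22 counts in BMI1-KO MM-MΦs and 14, 18 and 14 in BMI1-KO MΦs, and 0 counts in all 6 wt libraries. With wt set at a floor of 3 counts over its 6 libraries, Lhx8 was 32.0-fold higher in BMI1-KO libraries, a value that depends on that floor. The exact 95% counting interval of the ratio begins lower, at 25.6 (intervals and floors cover counting error only). Within a culture, at a floor of 3 counts over 3 libraries, Lhx8 was 16.7-fold higher in MM-MΦs, with an interval from 13 upward. In MΦs it was 15.4-fold higher, with an interval from 12 upward. In the edgeR test averaged over both cultures the adjusted p was 0.00118, and Lhx8 was past the threshold in 22 of 23 alternatives. The 1 alternative without the call summed the MΦ and MM-MΦ libraries of 1 genotype and number, which deviated together (edgeR adjusted p = 0.0658). The adjusted p was 0.0501 in MM-MΦs alone and 0.0679 in MΦs alone in the same edgeR model. Lhx8 passed in MM-MΦs when any one of the 3 wt MΦ libraries or BMI1-KO MM-MΦ replicate 1 was left out (lowest edgeR adjusted p = 0.0242), and in MΦs when any one of the 3 wt MM-MΦ libraries was left out (lowest edgeR adjusted p = 0.0258). A count in every BMI1-KO library with 0 in every wt library was found in 7 of 24317 genes (0.0288%), of which Lhx8 was the 1 member. The reverse was found in 2 genes (0.00822%), none of them a member. Within a culture, Lhx8 was again the 1 such member, in MM-MΦs (0.251% of all genes) and in MΦs (0.354%). The reverse held for 1 member in MM-MΦs (Sox15; 0.3%) and 1 in MΦs (Tbx18; 0.218%).

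Lhx8 (ENSMUSG00000096225) lies on chromosome 3 of GRCm38 from 154306294 to 154330659, on the minus strand, and the non-coding gene AI606473 (ENSMUSG00000093738) starts 162 bases beyond its 5′ end and runs the other way, on the plus strand, from 154330821 to 154334254. AI606473 is no member and was picked out after its values were seen, as the only gene outside the families past an edgeR adjusted p of 0.05 among the 226 genes with a count that lie within 100000 bases of a member (0.442%). It had 36, 44 and 37 counts in BMI1-KO MM-MΦs, against 1, 2 and 0 in wt MM-MΦs. It had 27, 35 and 21 counts in BMI1-KO MΦs, against 2, 0 and 4 in wt MΦs. Every BMI1-KO library lay far above every wt library, as for Lhx8. The log2 fold change averaged over both cultures was 4.44 (SE 0.54, edgeR adjusted p = 0.000505), and the call was kept in all 23 alternatives. The windows that RefSeq (GRCm38.p6) places around the starts of both genes, from 250 bases before a start to 50 after it, share 240 of their 300 bases. The window of Lhx8, chr3:154330511-154330810 on the minus strand, is shown because most of it lies in the windows of both genes. The start of Lhx8 lies inside it, and that of AI606473, at 154330821, lies just beyond its highest coordinate. RefSeq and GENCODE place the start of Lhx8 at different bases, and the 162 bases given above follow GENCODE. Capitals mark CpG.
Lhx8: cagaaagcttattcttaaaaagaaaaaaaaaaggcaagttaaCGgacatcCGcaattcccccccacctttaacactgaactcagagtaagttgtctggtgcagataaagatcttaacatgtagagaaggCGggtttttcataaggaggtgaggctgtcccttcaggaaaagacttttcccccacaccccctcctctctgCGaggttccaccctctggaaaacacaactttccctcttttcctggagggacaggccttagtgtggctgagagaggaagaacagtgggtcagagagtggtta

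This window holds 4 CpG, and 45.8% of the 27025 genes with a RefSeq window hold 10 or more.

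The other gene of the Lhx family with counts in each BMI1-KO library was Lhx2 (ENSMUSG00000000247, chromosome 2 from 38339281 to 38369733, plus strand), a factor of eye, forebrain and hair follicle stem cells. Lhx2 had 14, 14 and 6 counts in BMI1-KO MM-MΦs, against 0, 1 and 4 in wt MM-MΦs. It had 13, 30 and 4 counts in BMI1-KO MΦs, against 4, 1 and 1 in wt MΦs. The groups did not overlap in MM-MΦs and met at 4 counts in MΦs. Over both cultures the summed level was 7.45 times that of wt (Clopper-Pearson 95% counting interval 3.95 to 15.5). The log2 fold change averaged over both cultures was 2.83 (SE 0.72) and missed the threshold (edgeR adjusted p = 0.0991). It passed in 4 of 23 alternatives. These were the fit without wt MM-MΦ replicate 3 (edgeR adjusted p = 0.0467), DESeq2 (adjusted p = 0.0128), a replicate block over the 4 groups, and the fit without libraries numbered 3. Lhx9, a gonad factor, had 12 counts in all, Lhx1 5 and Lhx3 2, and Lhx4, Lhx5 and Lhx6 had none.

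Dlx2 (ENSMUSG00000023391, chromosome 2 from 71543408 to 71546754, minus strand), a homeobox factor of forebrain interneurons and of the jaws, gained counts less evenly. It had 19, 23 and 83 counts in BMI1-KO MM-MΦs, against 4, 2 and 3 in wt MM-MΦs. It had 3, 27 and 35 counts in BMI1-KO MΦs, against 4, 0 and 11 in wt MΦs. The groups were apart in MM-MΦs, whereas BMI1-KO MΦ replicate 1 lay within the wt range. Over both cultures the summed level was 8.01 times that of wt (95% counting interval 5.22 to 12.8), and the log2 fold change was 2.90 (SE 0.64, edgeR adjusted p = 0.0446). This call was lost in 13 of 23 alternatives, among them both low-count filters, and in 7 of the 12 fits with 1 library left out. The adjusted p was then highest, at 0.126, without BMI1-KO MM-MΦ replicate 3, the library with 83 counts, 0.0573 without its replicate 2, and 0.0993 and 0.101 without BMI1-KO MΦ replicates 2 and 3. It was 0.0651 without wt MΦ replicate 1 or 2 and 0.103 with wt MM-MΦ replicate 2 left out.

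The Dlx genes lie in pairs, and the partners of a pair differed in their counts. Dlx1, which lies 9427 bases from Dlx2 on chromosome 2 and acts with it in forebrain neurons, had 3 counts in BMI1-KO libraries and 0 in wt libraries. Dlx3, a factor of skin, hair and placenta, had 0 counts in all 6 BMI1-KO libraries, against 0, 5 and 3 in wt MM-MΦs and 2, 4 and 0 in wt MΦs. With BMI1-KO at the floor of 3 counts Dlx3 was 4.61-fold lower in BMI1-KO libraries, a value that depends on that floor. The exact 95% counting interval of the ratio of BMI1-KO to wt reaches 0.305 (edgeR adjusted p = 0.438). Dlx4, its neighbour on chromosome 11, had 6 counts in BMI1-KO MM-MΦ replicate 2 and 5 in BMI1-KO MΦ replicate 3, and none elsewhere (edgeR adjusted p = 0.590). Dlx4 overlaps the antisense gene Dlx4os, which had 5 counts in BMI1-KO libraries and 0 in wt libraries, and since no strand setting is given in the sources used here, reads of both cannot be told apart. Dlx5 was at 0 in all libraries, and Dlx6 had 1 count.

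The RefSeq windows of Dlx2 and Lhx2 are shown beside that of Lhx8 because their CpG content differs from it. That of Dlx2 lies at chr2:71546705-71547004 on the minus strand and that of Lhx2 at chr2:38339031-38339330 on the plus strand (GRCm38.p6, capitals mark CpG).
Dlx2: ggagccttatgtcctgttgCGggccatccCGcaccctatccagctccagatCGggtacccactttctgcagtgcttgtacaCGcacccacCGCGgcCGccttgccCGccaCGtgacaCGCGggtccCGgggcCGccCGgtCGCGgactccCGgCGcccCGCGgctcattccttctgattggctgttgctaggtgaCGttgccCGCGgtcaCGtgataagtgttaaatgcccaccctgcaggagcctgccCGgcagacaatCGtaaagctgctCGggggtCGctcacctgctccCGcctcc
Lhx2: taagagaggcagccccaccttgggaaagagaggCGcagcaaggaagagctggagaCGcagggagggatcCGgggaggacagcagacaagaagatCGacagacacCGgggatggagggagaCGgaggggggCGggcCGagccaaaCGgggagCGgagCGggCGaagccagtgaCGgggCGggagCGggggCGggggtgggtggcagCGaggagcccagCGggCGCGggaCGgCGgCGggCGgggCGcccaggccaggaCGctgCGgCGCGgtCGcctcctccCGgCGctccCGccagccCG

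The window of Dlx2 holds 29 CpG and that of Lhx2 holds 34, and a second start of Lhx2 has 29 in its window. A RefSeq window was found for 56 of the 79 members. Counting CG, which reads the same on both strands, and taking the window with the most for each gene, the median was 20.5 CpG in members and 8 in all 27025 genes. At least 10 CpG were found in 80.4% of members and 45.8% of all genes. Members at 0 in all libraries had a median of 21.5 CpG and members with a count had 16.5, so that the members with counts held no more CpG than the silent ones.

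**Figure D2:**
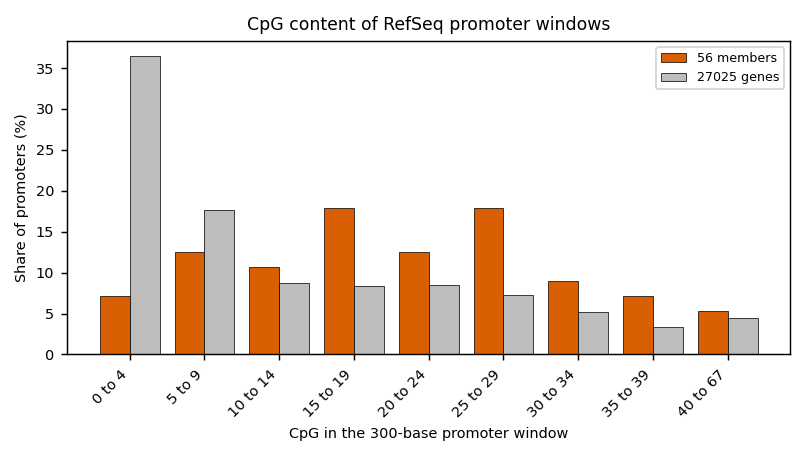
Share of genes (y axis, percent) by the number of CpG in their 300-base RefSeq promoter window (x axis), for 56 members (orange) and all 27025 genes with a window (grey). The lowest class, 0 to 4 CpG, holds 7.14% of members and 36.5% of all genes.

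**Figure D3:**
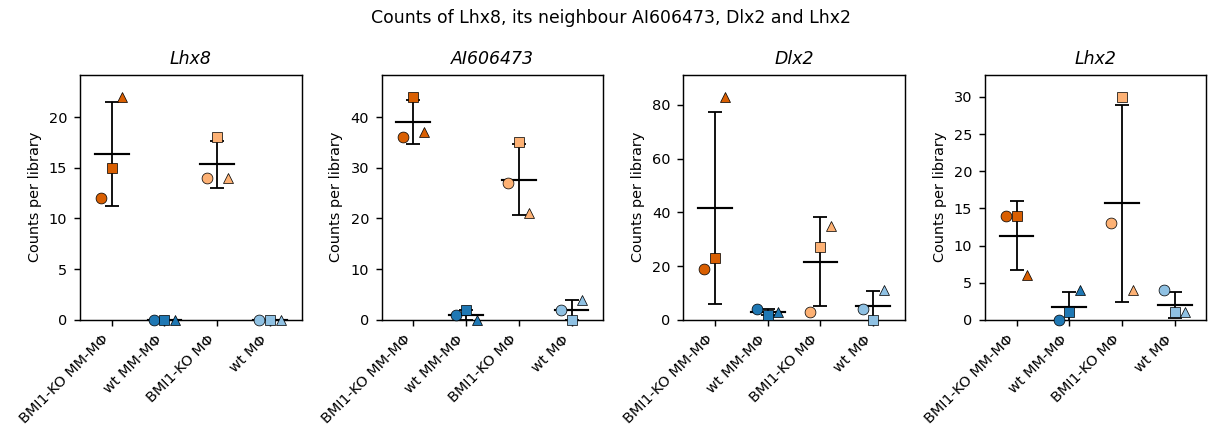
Counts per library (y axis, from 0) of Lhx8, its neighbour AI606473, Dlx2 and Lhx2 in the 4 groups (x axis), each marker being 1 library (circle, square, triangle: replicates 1, 2, 3) and each black line the mean with its SD (n = 3). In Lhx8 and AI606473 all 6 BMI1-KO libraries sit above all 6 wt libraries, and in Dlx2 and Lhx2 a BMI1-KO MΦ library lies within or at the edge of the wt range.

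Across the 38 members with a count, edgeR called 2 higher and 0 lower in BMI1-KO libraries averaged over both cultures (Lhx8 and Dlx2). In the same test 0.345% of all 24317 genes were higher and 0.288% lower. At an unadjusted p under 0.05 it had 6 members higher (3.92% of all genes) and 2 lower (4%). In MM-MΦs alone edgeR called 0 members, against 0.0617% of all genes higher and 0.0247% lower, while at an unadjusted p under 0.05 it had 3 members higher (Dlx2, Lhx2 and Lhx8; 1.92% of all genes) and 1 lower (Sox15; 1.79%). In MΦs alone edgeR called 0 members as well, against 0.0452% of all genes higher and 0.0123% lower, with the same 3 members higher at an unadjusted p under 0.05 (2.18%) and 0 lower (2.05%). DESeq2 called 2 members higher in MM-MΦs (Dlx2 and Lhx8; 0.181% of all genes) and 1 in MΦs (Lhx8; 0.169%), and limma-voom called Lhx8 higher in MM-MΦs (0.0576%) and in MΦs (0.0452%). The averaged test takes the MΦ and MM-MΦ libraries of 1 genotype and number as separate samples, though they deviated together. With their counts summed, 3 against 3, edgeR called 0 members, against 0.037% of all genes higher and 0.00411% lower. At an unadjusted p under 0.05 it then had 4 members higher (2.12% of all genes) and 1 lower (1.85%), and the adjusted p was 0.0658 for Lhx8, 0.407 for Dlx2, 0.486 for Lhx2 and 0.0107 for AI606473. The neutrophil marker list summed highest in the BMI1-KO libraries numbered 2. In the other BMI1-KO libraries its sum, at 32.0 to 66.8 CPM, was close to the wt range of 36.8 to 64.3 CPM. The shift of single genes of this list was not shown to be confined to the libraries numbered 2. Of its 10 genes edgeR called 0 in the averaged test. At an unadjusted p under 0.05, 6 were higher in BMI1-KO libraries and 0 lower, with 4 higher in MM-MΦs alone and 5 in MΦs alone. Without the BMI1-KO libraries numbered 2, Lhx8 (edgeR adjusted p = 0.00914) was still called in the averaged test and Dlx2 (0.107) was not. The share of neutrophils in the counts of the members was not tested.

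The summed level of a B cell marker list differed between genotypes too, though 1 gene of it alone passed a test. The 9 genes of the B cell list summed to 18.9 to 19.2 CPM in BMI1-KO MM-MΦs against 7.68 to 11.4 CPM in wt MM-MΦs, and to 13.2 to 18.9 CPM in BMI1-KO MΦs against 8.15 to 10.0 CPM in wt MΦs. Cd79b, a part of the B cell receptor, was the 1 gene of the list called (log2 fold change averaged over both cultures 0.96, SE 0.19, edgeR adjusted p = 0.0208). It was also the 1 gene of the list with an unadjusted p under 0.05 in that test. Only 6 of the 9 genes had a count, and Blk, Vpreb3 and Fcer2a were at 0 in all 12 libraries. Of 10 plasma and myeloma cell genes, edgeR called Sdc1 lower in BMI1-KO libraries averaged over both cultures. At an unadjusted p under 0.05, 4 of these 10 were lower, against 4% of all genes, and 0 higher, against 3.92%. The part of B cells and plasma cells in the counts of the members was not tested.

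The summed level was higher in BMI1-KO libraries in 27 of the 38 members, against 50.4% of all genes, and lower in 11, against 49.6%, with few counts behind most of them. Their median log2 fold change in the fit was 0.94 averaged over both cultures, but fitted values of genes at 0 in a genotype are no measure of size. With such genes at the bound set by 3 counts, the median log2 ratio over the 38 members was 0.01, against 0.00 over all 24317 genes, a value that the floor itself draws to 0 where so many members have so few counts. A total of 13 members had counts in BMI1-KO libraries only and 5 in wt libraries only. Among the 54 members at 0 in wt this is 24.1%, against 5.59% of all genes at 0 in wt, and among the 46 members at 0 in BMI1-KO it is 10.9%, against 5.5% of such genes. Apart from Lhx8, the members found in BMI1-KO libraries only had at most 11 counts in all, such as Sox9, the factor of cartilage, with 3 counts in BMI1-KO MM-MΦ replicate 2 and 8 in BMI1-KO MΦ replicate 3 (edgeR adjusted p = 0.607).

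**Figure D4:**
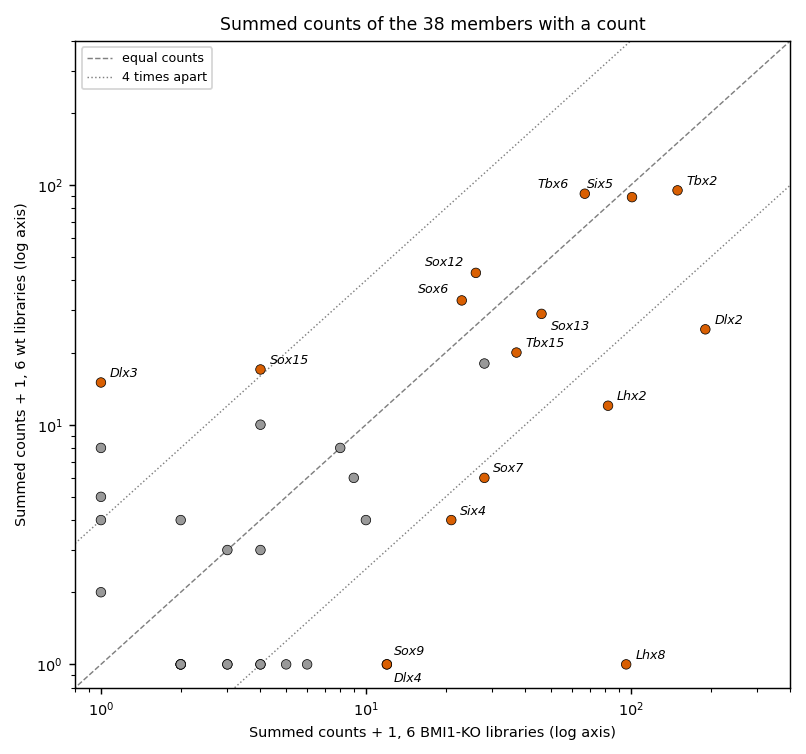
Summed counts + 1 of the 38 members with a count in 6 BMI1-KO libraries (x axis, log scale) and 6 wt libraries (y axis, log scale), with the named members in orange and the others in grey; points can coincide. The dashed line marks equal counts and the dotted lines a ratio of 4. Lhx8, Dlx2, Lhx2, Sox7 and Six4 lie past the lower dotted line with at least 20 counts in BMI1-KO libraries. The named members Dlx3 and Sox15 lie past the upper one, as do Irx3 and Tbx19, with 7 and 4 counts in wt libraries and 0 in BMI1-KO libraries.

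With at least 10 counts in BMI1-KO libraries and a ratio of 4 or more, wt being set at no less than 3 counts, 5 members were higher (Lhx8, Dlx2, Lhx2, Six4 and Sox7), against 1.29% of all genes. In the other direction 2 members were found (Dlx3 and Sox15), against 0.979% of all genes. Every BMI1-KO library lay above every wt library in CPM in 4 members in MM-MΦs (Lhx8, Dlx2, Lhx2 and Sox7, 3.64% of all genes). The same held in 1 member in MΦs (Lhx8, 4.03%) and in this 1 member over all 12 libraries (0.609%). For Sox7 the separation rested on library scaling alone. Its BMI1-KO MM-MΦ replicate 1 and wt MM-MΦ replicate 3 tied at 1 count, worth 0.107 and 0.0888 CPM. Every BMI1-KO library lay below every wt library in 1 member in MM-MΦs (Sox15; 3.32%), in 1 in MΦs (Tbx18, a heart and ureter factor; 3.64%) and in 0 over all 12 libraries (0.498%).

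Six4, a sine oculis factor of muscle and kidney (chromosome 12), had 0, 0 and 16 counts in BMI1-KO MM-MΦs, against 1, 1 and 0 in wt MM-MΦs. It had 2, 0 and 2 counts in BMI1-KO MΦs, against 0, 1 and 0 in wt MΦs. The excess of Six4 thus came mostly from 1 library, and the groups overlapped (summed level 6.75 times that of wt, 95% counting interval 2.00 to 35.4, edgeR adjusted p = 0.748). Six2, a kidney progenitor factor, and Six6, an eye and pituitary factor, were at 0 in all 12 libraries.

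Sox7, an endothelial and blood-forming factor of the SoxF group, had 1, 9 and 4 counts in BMI1-KO MM-MΦs, against 0, 0 and 1 in wt MM-MΦs. It had 9, 3 and 1 counts in BMI1-KO MΦs, against 0, 4 and 0 in wt MΦs. The summed level was 5.46 times that of wt (95% counting interval 2.07 to 18.2), and the test missed the threshold (log2 fold change 2.53, SE 1.11, edgeR adjusted p = 0.582). Of the other SoxF genes, Sox17 was at 0 in all libraries and Sox18 had 2 counts. The endothelial marker list summed to 24.9 to 77.7 CPM in BMI1-KO MM-MΦs against 18.6 to 64.8 CPM in wt MM-MΦs, and to 20.6 to 45.8 CPM in BMI1-KO MΦs against 13.5 to 39.8 CPM in wt MΦs. Of its 10 genes 9 had counts, Robo4 had none, and its part in the counts of Sox7 was not tested.

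Sox15, the SoxG factor of placenta and muscle, was at 0 in all 3 BMI1-KO MM-MΦ libraries, against 2, 4 and 4 counts in wt MM-MΦs. It had 0, 0 and 3 counts in BMI1-KO MΦs, against 1, 0 and 5 in wt MΦs, so that the groups overlapped there. The summed level in BMI1-KO libraries was 0.190 times that of wt (95% counting interval 0.0354 to 0.663, edgeR adjusted p = 0.608 averaged over both cultures). Sox15 overlaps Mpdu1 on the other strand, a gene of protein glycosylation with 2512 counts in BMI1-KO libraries and 3034 in wt libraries, and reads of both cannot be told apart without a strand setting.

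Of the 10 members with the highest CPM, Tbx2, Tbx6, Six5, Sox12, Sox13 and Tbx15 had counts in both genotypes and varied widely between libraries. Tbx2, a T-box repressor of heart and limb development, had 22, 47 and 15 counts in BMI1-KO MM-MΦs, against 14, 25 and 15 in wt MM-MΦs, and 39, 16 and 10 in BMI1-KO MΦs, against 19, 6 and 15 in wt MΦs. Tbx6, a factor of paraxial mesoderm, had 16, 12 and 2 counts in BMI1-KO MM-MΦs, against 11, 7 and 17 in wt MM-MΦs, and 19, 10 and 7 in BMI1-KO MΦs, against 15, 26 and 15 in wt MΦs. Six5, a widely expressed sine oculis factor, had 11, 11 and 26 counts in BMI1-KO MM-MΦs, against 15, 7 and 16 in wt MM-MΦs, and 31, 11 and 10 in BMI1-KO MΦs, against 18, 8 and 24 in wt MΦs. The genotypes overlapped in each of these 3 genes and in both cultures.

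Sox12, a SoxC factor found in many tissues, had 4, 6 and 8 counts in BMI1-KO MM-MΦs, against 5, 4 and 11 in wt MM-MΦs, and 3, 2 and 2 in BMI1-KO MΦs, against 3, 6 and 13 in wt MΦs. Sox13, a SoxD factor known from γδ T cells, had 7, 1 and 7 counts in BMI1-KO MM-MΦs, against 3, 7 and 6 in wt MM-MΦs, and 15, 6 and 9 in BMI1-KO MΦs, against 1, 7 and 4 in wt MΦs. Tbx15, a factor of limb skeleton and muscle, had 1, 15 and 8 counts in BMI1-KO MM-MΦs, against 3, 2 and 2 in wt MM-MΦs, and 1, 6 and 5 in BMI1-KO MΦs, against 0, 4 and 8 in wt MΦs. The genotypes overlapped or met in these genes too. The summed level in BMI1-KO libraries was 1.60 times that of wt for Tbx2 (95% counting interval 1.23 to 2.10), 0.734 times for Tbx6 (0.526 to 1.02), 1.15 times for Six5 (0.855 to 1.55), 0.602 times for Sox12 (0.352 to 1.01), 1.63 times for Sox13 (0.993 to 2.71) and 1.92 times for Tbx15 (1.07 to 3.54). None of the 6 was past the threshold in a genotype comparison. For Tbx2 and Tbx15, whose counting intervals lie above 1, the difference did not exceed the spread between libraries (Tbx2, log2 fold change 0.71, SE 0.44, edgeR adjusted p = 0.756, and Tbx15, 0.88, SE 0.80, edgeR adjusted p = 0.919).

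Per length of exon, the order of the members differed between genotypes. In BMI1-KO libraries the deposited FPKM values averaged 1.04 ± 0.841 for Dlx2, 0.682 ± 0.430 for Tbx2, 0.608 ± 0.362 for Tbx6 and 0.603 ± 0.109 for Lhx8 (SD, n = 6). These neighbours in the order lie within each other's spread. In wt libraries they averaged 0.133 ± 0.122 for Dlx2, 0.418 ± 0.176 for Tbx2, 0.810 ± 0.365 for Tbx6 and 0 for Lhx8 (SD, n = 6). In BMI1-KO libraries Lhx8 thus reached the level of Tbx2 and Tbx6, which had counts in every library and averaged below 1 FPKM in each genotype. Which cells of these bulk libraries hold the transcripts was not tested.

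Summed over all 79 members, BMI1-KO MM-MΦs had 17.9 ± 3.79 CPM and wt MM-MΦs 8.68 ± 1.68 CPM (SD, n = 3 each). BMI1-KO MΦs had 13.4 ± 3.02 CPM and wt MΦs 8.24 ± 1.12 CPM. The lowest BMI1-KO library had 10.4 CPM and the highest wt library 10.1 CPM. Without Lhx8, Dlx2 and Lhx2, which were left out after their values were seen, the sums were 11.2 ± 3.07 CPM in BMI1-KO MM-MΦs against 8.24 ± 1.70 CPM in wt MM-MΦs, and 8.37 ± 4.28 CPM in BMI1-KO MΦs against 7.59 ± 1.26 CPM in wt MΦs. The libraries of the genotypes then overlapped in both cultures.

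**Figure D5:**
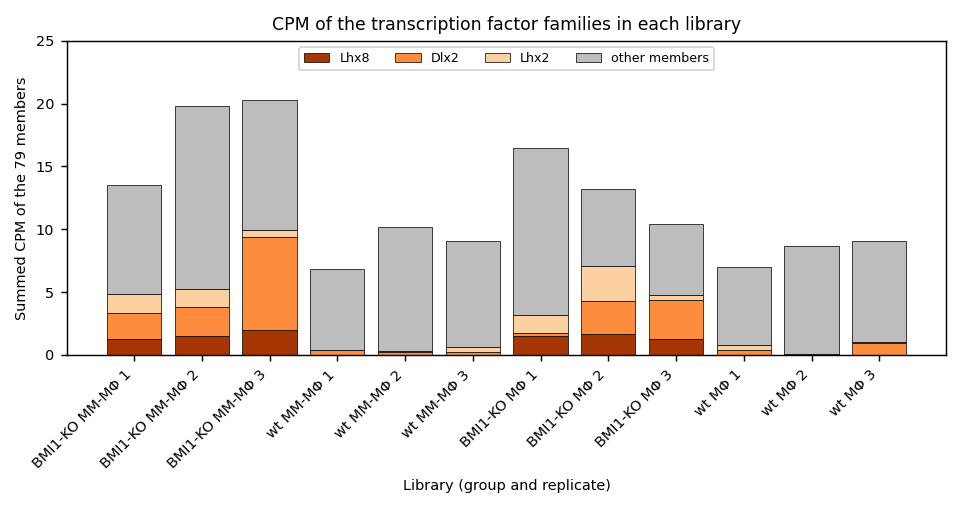
Summed CPM of the 79 members (y axis, from 0) in the 12 libraries (x axis), with Lhx8, Dlx2 and Lhx2 in shades of orange and brown and all other members in grey. The 6 BMI1-KO bars reach 10.4 to 20.3 CPM and the 6 wt bars 6.84 to 10.1 CPM, and the grey parts overlap between genotypes.

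Co-culture with myeloma cells changed no member past the threshold. In BMI1-KO cells (MM-MΦs against MΦs) and in wt cells edgeR called 0 members, against 0.173% and 0.0905% of all genes higher and 0 lower. DESeq2, limma-voom and the fit that pairs libraries of 1 genotype and number called 0 members as well, and the last of these fits called 1.67% of all genes higher in BMI1-KO cells and 1.01% in wt cells. At an unadjusted p under 0.05, edgeR had 1 member higher in BMI1-KO cells (Pax5; 1.63% of all genes) and 2 in wt cells (Pax5 and Sox6; 1.32%). It had none lower, against 0.691% of all genes in BMI1-KO cells and 0.44% in wt cells. Sox6, a SoxD factor of cartilage and red cell development, had 4, 10 and 5 counts in BMI1-KO MM-MΦs, against 0, 3 and 0 in BMI1-KO MΦs. It had 5, 19 and 8 counts in wt MM-MΦs, against 0, 0 and 0 in wt MΦs (edgeR adjusted p = 0.465). Pax5, the factor that sets B cell identity, had 8, 4 and 12 counts in BMI1-KO MM-MΦs, against 0, 3 and 0 in BMI1-KO MΦs. It had 3, 7 and 6 counts in wt MM-MΦs, against 0, 1 and 0 in wt MΦs. In both genes the MM-MΦ libraries lay above the MΦ libraries of the same genotype. Both had been singled out by an unadjusted p under 0.05 in these same data, which Sox6 missed in BMI1-KO cells (edgeR unadjusted p = 0.0548). The share of all genes separated in this way was not counted.

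Of the 10 genes of the plasma and myeloma cell list, edgeR called 3 higher in BMI1-KO MM-MΦs than in BMI1-KO MΦs (Ighg2b, Igkc and Pou2af1) and 0 in wt cells, where 3 were higher at an unadjusted p under 0.05. Igkc, an immunoglobulin light chain gene, had 357, 586 and 1218 counts in BMI1-KO MM-MΦs, against 8, 11 and 25 in BMI1-KO MΦs, and 423, 1327 and 831 in wt MM-MΦs, against 12, 157 and 31 in wt MΦs. The genes of that list summed to 399 to 513 CPM in BMI1-KO MM-MΦs against 273 to 316 CPM in BMI1-KO MΦs, and to 446 to 734 CPM in wt MM-MΦs against 265 to 494 CPM in wt MΦs, where the groups overlapped. Mzb1 was at 0 in 11 of 12 libraries. The part of such cells in the counts of Pax5 and Sox6 was not tested.

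The difference in the genotype effect between MM-MΦs and MΦs (the interaction) was past the threshold in 0 of the 38 members and 0 of all 24317 genes in edgeR (0%), and likewise in 0 genes with DESeq2 and limma-voom. The fit that pairs the libraries of 1 genotype and number called 17 genes in the positive direction and 6 in the negative one, none of them a member. At an unadjusted p under 0.05, edgeR had 1 member, Tbx18, against 0.617% of all genes in the same direction, and none the other way, against 0.572% of all genes. Tbx18 had 0, 6 and 1 counts in BMI1-KO MM-MΦs, against 0, 0 and 0 in wt MM-MΦs, and 0, 0 and 0 in BMI1-KO MΦs, against 1, 5 and 1 in wt MΦs. For Dlx2 the interaction was 1.61 on the log2 scale (SE 1.28), with an edgeR adjusted p of 1.

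Genes that work with the members or belong to the same class were read as lists. Among 90 other developmental transcription factors (homeobox, forkhead, GATA and related genes), 38 had a count and edgeR called 0 of them in the 3 genotype comparisons. Their summed level was 5.09 to 9.86 CPM in BMI1-KO MM-MΦs against 2.78 to 5.12 CPM in wt MM-MΦs, and 5.30 to 9.12 CPM in BMI1-KO MΦs against 1.92 to 4.58 CPM in wt MΦs. Shox2, a short stature homeobox factor of limb and sinoatrial node, had 120 counts in BMI1-KO libraries, against 16 in wt libraries (log2 fold change 3.09, SE 0.70, edgeR adjusted p = 0.0548). Alx4, a factor of limb and skull, had 69 counts in BMI1-KO libraries, against 7 in wt libraries (3.47, SE 0.89, edgeR adjusted p = 0.104). These were the 2 genes of the list with an unadjusted p under 0.05 in the averaged test, both higher, where 3.92% of all genes were higher.

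Genes of the Eya, Dach and Tle groups encode partner proteins of sine oculis and PAX factors. Of 10 such genes, 8 had counts in all 4 groups, Eya2 and Dach2 were at 0 in both wt groups, and Eya2 was at 0 in BMI1-KO MΦs too. Of the 10, 0 were called in any comparison. At an unadjusted p under 0.05 in the averaged edgeR test, 3 were higher, against 3.92% of all genes, and 1 lower, against 4%. Eya1, a coactivator of sine oculis factors, had 492, 356 and 299 counts in BMI1-KO MM-MΦs, against 454, 113 and 140 in wt MM-MΦs, and 513, 431 and 357 in BMI1-KO MΦs, against 451, 103 and 129 in wt MΦs. The genotypes overlapped in Eya1 in both cultures (log2 fold change averaged over both cultures 0.83, SE 0.37, edgeR adjusted p = 0.605). Of 21 genes of Polycomb repressive complex 1, edgeR called 1, Bmi1 itself as lower with the limit on its zeros given above, and of 12 genes of Polycomb repressive complex 2 it called 0.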

How the data were processed

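Total RNA of sorted macrophages was sequenced in 12 libraries. Per the submitters' processing notes, HTSeq 0.6.1 was among the tools behind the deposited raw counts per gene, which name bcl2fastq 2.17.1.14 too, with cutadapt 1.9.1, a read trimmer, and HISAT2 2.0.1, an aligner, and mm10 (GRCm38) as the build. The deposited FPKM values match these counts over summed exon length for every member, and served for levels between genes. Neither the annotation release nor a strand setting is given in the sources used here.

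Counts were fitted with edgeR 4.0.16 in R 4.3.3 (TMM, quasi-likelihood test, 4 group means, 24317 genes with a count, no other filter), and p-values were adjusted over all genes by the Benjamini-Hochberg method. The averaged comparison is the mean of the 2 genotype contrasts. Alternatives used DESeq2 1.42.0, limma-voom 3.58.1, other scalings and filters (a minimum count of 10, or 1 CPM in 3 libraries), replicate blocks, summed cultures and left-out libraries. MΦ and MM-MΦ libraries of 1 genotype and number deviated together from their group means (r = 0.642, 0.181 and 0.598 in BMI1-KO, 0.548, 0.362 and 0.725 in wt, over 14197 genes). On this ground alone the numbers were taken to pair the cultures within a genotype. No label states such a pairing, and the correlation was weakest for number 2. The averaged edgeR test alone was tried on simulated counts with known changes, placed in genes with more counts than most members have. Its libraries were simulated as independent, so that it cannot show how the fits behave for most members or for paired cultures.

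Ratios of summed CPM have exact 95% intervals, and folds against 0 use a floor of 3 counts. A gene that the symbol rule matches is not reported here and enters no count of members, though it stays in the fits and in the shares of all genes. Members shown with the counts of all libraries were those past an adjusted p of 0.05, those with 10 summed counts and a ratio of at least 4, and the 10 with the highest CPM, and a few others where a sentence needed them. The members, the gene lists and this rule were chosen with earlier results of these data known. Positions and strands follow GENCODE M21 and promoters RefSeq on GRCm38.p6.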

Additional observations from a re-analysis of the deposited data

Results flagged for a closer look

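Sox13 moved in opposite directions with co-culture in the 2 genotypes: all 3 BMI1-KO libraries were lower in MM-MΦs than in the MΦs of the same number, and all 3 wt libraries were higher, with equal raw counts in wt replicate 2. The mean change in BMI1-KO minus that in wt was −0.621 CPM. The interaction itself did not pass the test (−1.39 on the log2 scale, SE 1.26, edgeR adjusted p = 1), and the counts were 1 to 15 per library. The library totals that stand behind the deposited FPKM values exceeded the summed counts by 512 in the lowest BMI1-KO library and by 734 in the highest, and by −2 to 1 in wt libraries, and the gene or genes that hold these counts were not identified here.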

How the results depend on the processing

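Within MM-MΦs, where edgeR called 0 members, DESeq2 called 2 (0.181% of all genes higher and 0.144% lower) and limma-voom 1 (0.0576% and 0.0288%). The fit without the 4 libraries numbered 3 called 2, with 0.605% of all genes higher and 0.955% lower. Within MΦs, where edgeR called 0, DESeq2, limma-voom and the fit without libraries numbered 3 called 1 each. Of all genes, DESeq2 called 0.169% higher and 0.111% lower there, limma-voom 0.0452% and 0.0123%, and the fit without libraries numbered 3 0.518% and 0.86%. Averaged over both cultures, 1 member was called in place of 2 with both low-count filters, robust dispersion and limma-voom. The same held without the BMI1-KO libraries numbered 2, an alternative chosen after seeing the data. These fits called 0.193% to 0.416% of all genes higher and 0.123% to 0.233% lower. Summing the cultures by genotype and number gave 0 (0.037% and 0.00411%). DESeq2 gave 3 members (0.753% and 0.654%), and so did the fit without libraries numbered 3 (1.39% and 1.8%). Leaving out 1 library in turn gave 0 to 1 members in MM-MΦs, 0 to 1 in MΦs and 1 to 3 averaged. Of all genes, these fits called 0.0249% to 0.116% higher and 0.00416% to 0.0914% lower in MM-MΦs. In MΦs they called 0.0166% to 0.104% higher and 0.00415% to 0.054% lower. Averaged, they called 0.204% to 0.448% higher and 0.17% to 0.498% lower. Between BMI1-KO and wt libraries of 1 number, deviations correlated for number 1 (r = 0.497 in MM-MΦs and 0.481 in MΦs) and number 3 (0.508 and 0.503) but not for number 2 (0.0332 and −0.0313), so that the numbers were not taken to pair the genotypes. A replicate block over the 4 groups called 2 members in MM-MΦs, where it called 1.29% of all genes higher and 2.12% lower, 2 in MΦs (1.53% and 2.41%) and 3 averaged (2.93% and 4.24%). The block that pairs cultures within a genotype called 0 members for co-culture and changed no member's call. With at least 2 counts required in each wt MΦ library and at most 1 in BMI1-KO MΦs, 0 members had counts on the wt side alone, in place of 1. The summed level without the 5 members with the most counts was 7.00 CPM in BMI1-KO MM-MΦs against 4.32 CPM in wt MM-MΦs, and 4.80 CPM in BMI1-KO MΦs against 3.14 CPM in wt MΦs. Without Lhx8, Dlx2 and Lhx2, chosen after seeing the data, it was 11.2 CPM for BMI1-KO MM-MΦs and 8.37 CPM for BMI1-KO MΦs. The cause of these shifts was not tested. No called member changed direction under an alternative run. Depth limits what can be seen, since 62 of the 79 members stayed under 10 summed counts in both genotypes, where no member passed the edgeR test.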
